A study of Mus musculus with 2 samples.

Results

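The miRNAs described here are linked to thyroid hormone through muscle, heart or liver, where they have been reported to respond to the hormone. They were chosen by name, from a list of 10 miRNAs taken in either arm, among the probes for mouse miRNAs without mismatch probes. Earlier results of these data were known when they were chosen. The rule found 10 probes of 422, a single probe for each of mmu-miR-378, mmu-miR-378*, mmu-miR-1, mmu-miR-133a, mmu-miR-133b, mmu-miR-206, mmu-miR-208, mmu-miR-499, mmu-miR-350 and mmu-miR-761, and none by the name miR-383. The prefix for mouse is left out below. RNA came from G2N2C, a line of mouse basal cell carcinoma (BCC) cells, transfected with Stealth-D3 or Stealth-ctr oligonucleotides. Stealth-D3 interferes with Dio3, whose product, the type 3 deiodinase (D3), inactivates thyroid hormone. Cells of both conditions were grown in low calcium with keratinocyte growth factor and 8% calcium-chelated serum, and were harvested at 48 h. Each pool combined the RNA of 3 experiments, and both pools were put together on each of 2 two-colour arrays. The first array had the Stealth-D3 pool in Cy3 and the Stealth-ctr pool in Cy5, and the second had them the other way round. Both arrays therefore hold 1 replicate per condition from a single cell line, their spread is technical, and their number limits the precision.

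A miRNA is a short RNA that pairs through its seed, the bases near its 5′ end, with sites in messenger RNAs and lowers their output. Thyroid hormone acts on striated muscle and heart in part by changing which myosin genes are used, and some muscle miRNAs lie inside myosin genes. In RefSeq's annotation of GRCm38.p6, Mir208a lies within Myh6, the myosin heavy chain gene that thyroid hormone raises in the heart, and Mir499 within Myh7b. Mir206 and Mir133b lie within the noncoding gene Lincmd1, and Mir1a-1 and Mir133a-2 within Mir1a-1hg, so each pair shares an annotated gene. Mir378a lies within Ppargc1b, a coactivator gene of mitochondrial metabolism, Mir350 within Cep170 and Mir761 within Nrd1.

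The mature sequences are shown because the seed, in capitals (bases 2 to 8), sets which of these miRNAs can share targets. RefSeq sequences (GRCm38.p6) were matched for 6 of the 10 members, with the arm taken that the older name without a star stood for, and for miR-214, which is no member. miR-206 is at chr1:20679055-20679076 (+), miR-133b at chr1:20682834-20682855 (+), miR-208 at chr14:54949072-54949093 (-), miR-499 at chr2:155622893-155622913 (+), miR-350 at chr1:176772342-176772363 (-), miR-761 at chr4:109017669-109017690 (+) and miR-214 at chr1:162223438-162223459 (+).
miR-206: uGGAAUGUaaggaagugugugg
miR-133b: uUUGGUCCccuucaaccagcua
miR-208: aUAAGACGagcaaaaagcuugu
miR-499: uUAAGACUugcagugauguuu
miR-350: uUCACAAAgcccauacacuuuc
miR-761: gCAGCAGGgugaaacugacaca
miR-214: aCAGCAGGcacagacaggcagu
The 2 miRNAs of myosin introns, miR-208 and miR-499, have the same bases 2 to 7. miR-761 has the whole seed of miR-214, a miRNA known to target Dio3 in cardiomyocytes, and no other of the 1738 mature mouse sequences in the table carries it. Since sequences are shown for only 6 of the 10 members, further miRNAs with a given seed may be missing from them.

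Values are log2 ratios between the pools, with the sign of the first array turned so that both arrays run the same way. Values of both arrays set side by side stand in the order first array, second array. A positive value has the sign of miR-21, and miR-21 is positive in the authors' deposited table too. Before turning, miR-21 had -3.08 and 4.12. Which dye is the numerator is not given in the sources used here, so the direction towards the Stealth-D3 or the Stealth-ctr pool is not settled, and values lie on the side of miR-21 or opposite it. The rule of size asked for equal signs on both arrays and a mean of at least 1.5-fold, which is 0.585 on the log2 scale. The average log2 intensity, here called brightness, was taken from the authors' deposited table. That table gives no fold change for 424 probes, of which the brightest reached 6.99. Values near 0 of probes no brighter than this do not show that levels were alike.

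By this measure 5 of the 10 members were brighter than 6.99, namely miR-378, miR-1, miR-206, miR-350 and miR-761, beside 237 of the 373 mouse miRNAs that have a fold change. All 7 keratinocyte markers (the miR-200 family, miR-203 and miR-205) were brighter than 6.99, from 7.16 to 11.9. Of the 6 muscle markers 2 were, miR-1 and miR-206, of 4 measured fibroblast markers 3, and of 5 blood markers 1, miR-223. The deposited ratios rose with brightness, with r = 0.51 and 0.57 on the arrays across 2101 probes, which are not independent replicates. Values with a smooth trend on brightness removed are therefore given beside those as deposited. Over the 373 mouse miRNAs the 2 arrays, run the same way, correlated with r = -0.077 as deposited. After removal of the trend r was 0.43. Dio3 itself was not analysed here, and how far it was lowered is therefore unchecked.

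miR-378, which lies in a metabolic coactivator gene and is known in mice for its part in mitochondrial energy use, was the single member past the rule of size. Its log2 ratios were 0.98 and 1.51, both on the side of miR-21 and both past 1.5-fold. The mean was 1.25 ± 0.37 (technical SD over 2 arrays), or 2.37-fold, at a brightness of 8.22. With the trend removed the arrays lay closer, with 1.22 and 1.20 and a mean of 1.21 ± 0.016. The authors' deposited table gives a smaller log2 fold change for miR-378, 0.78 or 1.72-fold. It ranked 8 from the top among the 373 mouse miRNAs by the mean as deposited, 5 with the trend removed, and 5 by the log2 fold change in the authors' deposited table.

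Among the 50 mouse miRNAs nearest to miR-378 in brightness, from 7.78 to 8.72, the means had a median of 0.20, and 80% of them lay between -0.53 and 0.96. Of these 50, 4 lay farther from 0 than miR-378, and also 4 with the trend removed. Their technical SD had a median of 0.34 as deposited and 0.16 with the trend removed. The spread of miR-378 between arrays was thus near that of its neighbours as deposited, and was smaller with the trend removed, where 4 of the 50 had a smaller SD.

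**Figure D1:**
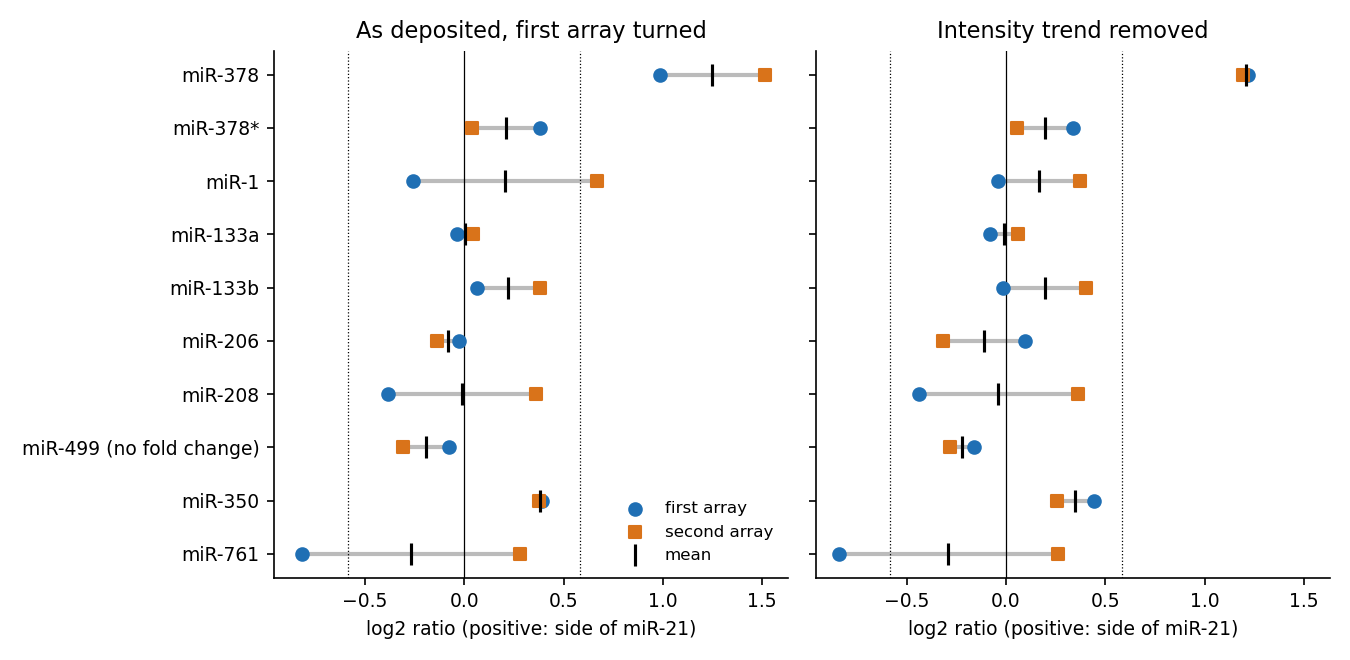
Log2 ratios of the 10 members (rows) on the first array (circles) and the second (squares), with their mean (bars), as deposited with the first array turned (left) and with the intensity trend removed (right). Dotted lines mark 1.5-fold; both arrays of miR-378 lie beyond it, while the arrays of miR-761 lie on either side of 0, at -0.82 and 0.28.

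The other arm of the same hairpin, miR-378*, which in mice acts on metabolic genes beside miR-378, did not pass the rule. Its values were 0.38 and 0.041, with a mean of 0.21 ± 0.24 and a log2 fold change of 0.20 in the authors' deposited table. At a brightness of 6.75 it lay within the range of probes without a fold change. A difference between the arms is therefore not given.

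The pattern over both arrays nearest to that of miR-378 belonged to miR-685, with 1.01 and 1.36 and a Euclidean distance of 0.15. It was followed by miR-99b at 0.27, miR-100 at 0.28, miR-138 at 0.28 and miR-212 at 0.36, where the median distance over 372 miRNAs was 1.78. The nearest with the trend removed were miR-542-5p at 0.22, miR-685 at 0.23, miR-30a at 0.24, miR-100 at 0.28 and miR-99b at 0.30. Likeness was thus measured over 2 values per miRNA. miR-685, miR-99b and miR-100 were among the 5 nearest in both sets of values.

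No skeletal or cardiac muscle miRNA passed the rule of size. The first pair from a shared gene is miR-1, which drives muscle differentiation, and miR-133a, known in muscle for favouring myoblast growth. miR-1 was among the brighter members, at 8.12, and had -0.26 and 0.67. Its arrays thus differed in sign, and the mean of 0.20 ± 0.65 lay within their spread. With the trend removed they were -0.039 and 0.38, so the gap between them shrank, and the log2 fold change in the authors' deposited table is -0.041. miR-133a had -0.036 and 0.045, both close to 0, at a brightness of 6.75.

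The second pair is miR-206, a miRNA of skeletal muscle that promotes differentiation, and miR-133b. miR-206 had -0.026 and -0.14 at a brightness of 7.60, a mean of -0.082 ± 0.079. Its small values lay opposite miR-21 on both arrays, but with the trend removed they were 0.097 and -0.32 and differed in sign. miR-133b, dimmer at 6.85, had 0.064 and 0.38, a mean of 0.22 ± 0.22. The log2 fold changes in the authors' deposited table are -0.044 for miR-206 and 0.12 for miR-133b. miR-1 and miR-206, which belong to one seed family, differed by 0.29 ± 0.73, with the sign of the difference changing between arrays.

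**Figure D2:**
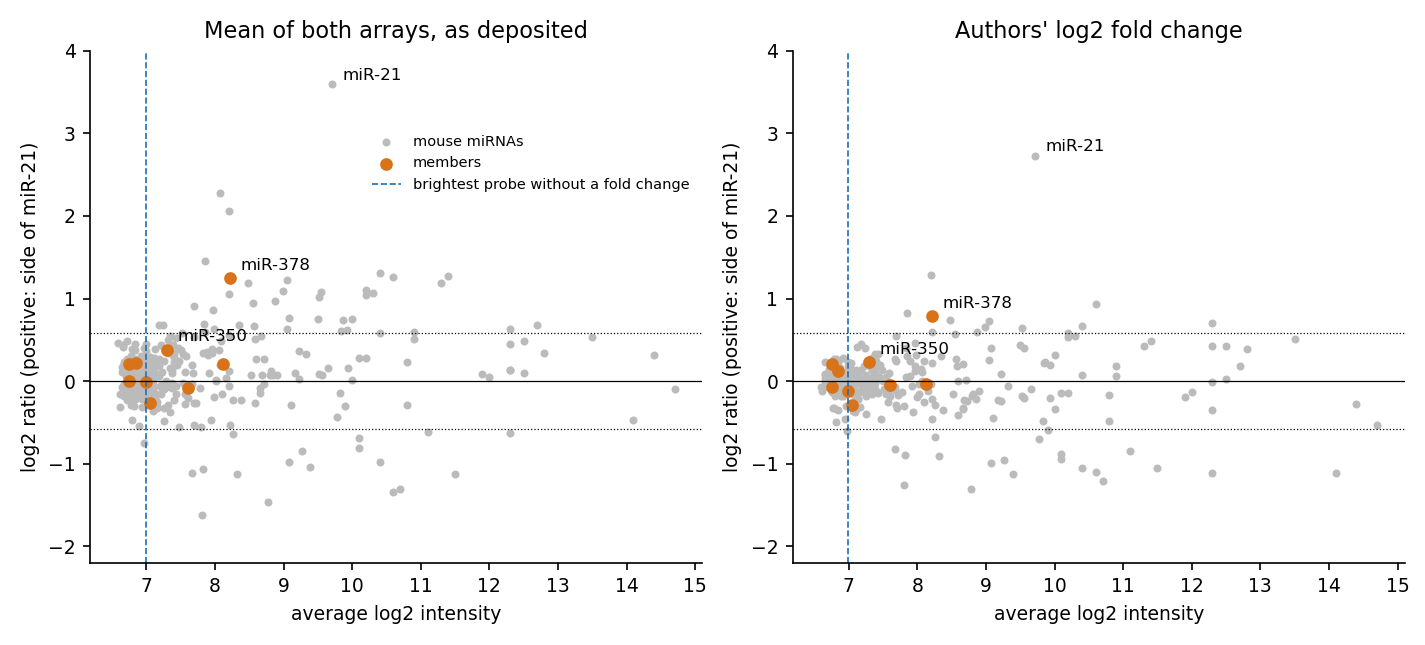
Mean log2 ratio as deposited (left) and the log2 fold change of the authors' deposited table (right) against average log2 intensity for 373 mouse miRNAs (grey) and 9 members (orange). Dotted lines mark 1.5-fold and the dashed line the brightest probe without a fold change, at 6.99; miR-378, at a brightness of 8.22, is the member beyond 1.5-fold in both panels.

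The miRNAs of myosin genes are miR-208, which in the mouse heart takes part in the control of myosin genes under stress and low thyroid hormone, and miR-499, found in heart and slow muscle. miR-208 had -0.39 and 0.36, with a mean of -0.013 ± 0.53 at a brightness of 6.99. Its arrays were of near equal size and opposite sign, so that before turning they were alike, with 0.39 and 0.36. The authors' deposited table gives it a log2 fold change of -0.12. miR-499 has no fold change there and a brightness of 6.92, so it entered no count. Its ratios were -0.077 and -0.31, with a mean of -0.19 ± 0.17.

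miR-350 came next after miR-378 in the order of means. Its values were 0.39 and 0.38, with a mean of 0.38 ± 0.010, at a brightness of 7.30. On both arrays it shared the sign of miR-21 and stayed below 1.5-fold. Once the trend was removed the arrays were 0.44 and 0.26, so the near identity as deposited did not hold. The log2 fold change in the authors' deposited table is 0.23. Among the 50 miRNAs nearest to it in brightness, 10 lay farther from 0.

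miR-761, known in mice for acting on a mitochondrial fission factor, had the lowest mean. Its values were -0.82 and 0.28, a mean of -0.27 ± 0.78 at a brightness of 7.05. Its arrays differed in sign by more than most: 48 of the 50 miRNAs nearest in brightness had a smaller technical SD. The log2 fold change in the authors' deposited table is -0.29, close to this mean. The seed partner miR-214 had -0.42 and 0.65, also of opposite sign, with a mean of 0.11 ± 0.76 and -0.15 in the authors' deposited table. miR-761 lay below miR-214 on both arrays, by -0.39 and -0.37. This difference was -0.38 ± 0.22 with the trend removed.

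**Figure D3:**
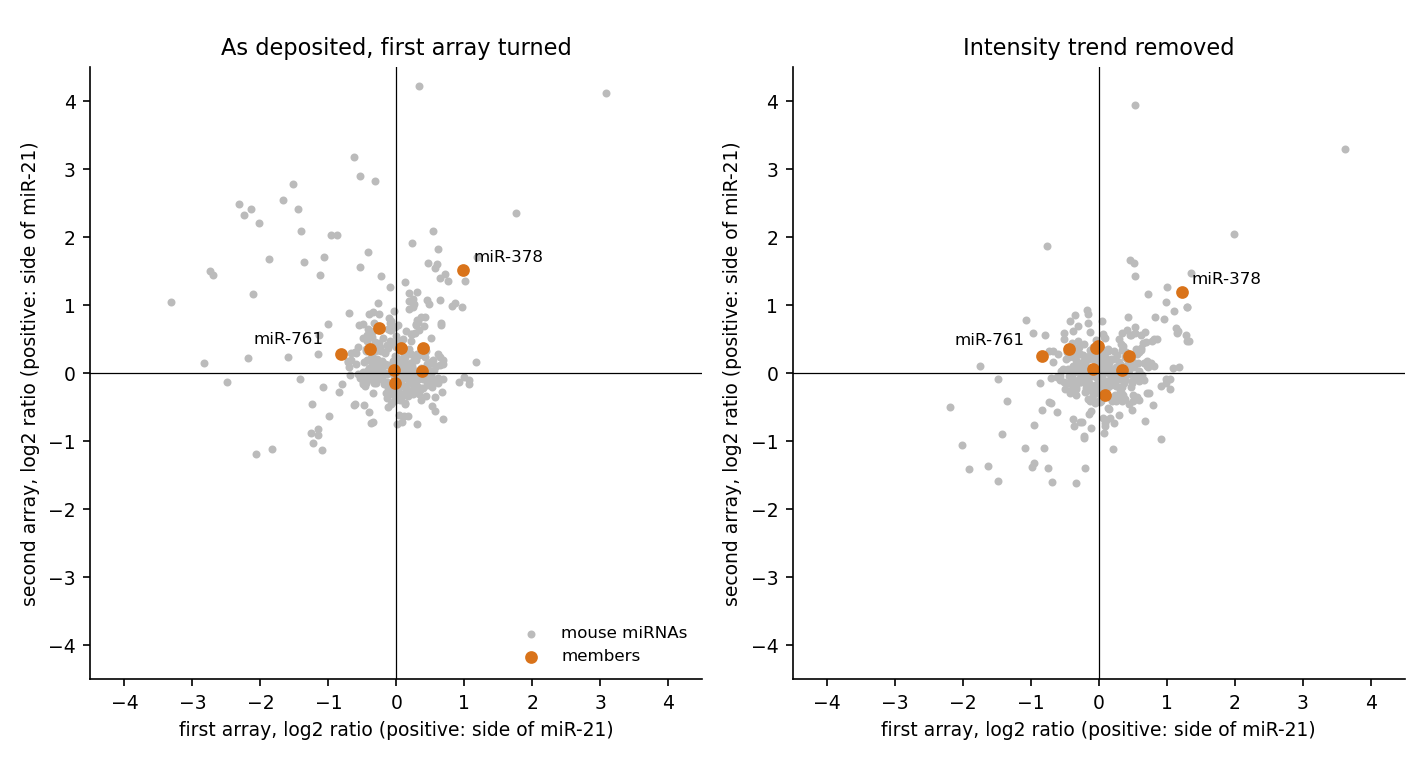
Log2 ratio on the second array against the first for 373 mouse miRNAs (grey) and 9 members (orange), as deposited with the first array turned (left) and with the intensity trend removed (right). miR-378 lies at 0.98 and 1.51 on the left and at 1.22 and 1.20 on the right, and miR-761 lies where the arrays differ in sign.

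In order of the mean, the 9 members with a fold change ran from miR-378 over miR-350, miR-133b, miR-378*, miR-1, miR-133a, miR-208 and miR-206 to miR-761. Only the step from miR-378 to miR-350, of 0.87, exceeded the technical SD of both its members. By the rule of size 1 of the 9 shared the side of miR-21, where 8.85% of the 373 mouse miRNAs lay, and 0 lay opposite, where 3.22% did. With the trend removed the count was again 1, against 8.04% on that side and 5.36% opposite, while 1 in the authors' deposited table reached 1.5-fold, against 3.75% and 5.63%. These shares correspond to 33 against 12 miRNAs as deposited, 30 against 20 with the trend removed, and 14 against 21 at 1.5-fold by the authors' deposited table. A count of 1 in 9 is near the background. On the first array alone 2 of the 9 reached 1.5-fold, miR-378 and miR-761, where 22.8% of the mouse miRNAs did, and on the second alone 2, miR-378 and miR-1, where 27.9% did.

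Arrays had the same sign for 5 of the 9 members as deposited, where 45.3% of the mouse miRNAs did, and for 3 with the trend removed, where 51.7% did. The members with the same sign in both sets of values were miR-378, miR-378* and miR-350. The median of the 9 was 0.20 beside 0.080 over the 373, and 0.17 beside 0.028 with the trend removed. The medians of the single arrays were -0.026 and 0.36, and it was -0.041 beside -0.018 in the authors' deposited table. Without miR-378 the median of the other 8 was 0.10 as deposited, with means from -0.27 to 0.38. The sign of the mean differed from that of the authors' deposited table for 2 of the 9 members, miR-1 and miR-133a, and for 99 of the 373 mouse miRNAs.

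Of 9 further miRNAs linked to thyroid hormone, its receptors or deiodinases, 8 had a fold change. miR-21, an oncogenic miRNA, had 3.60 ± 0.73, and miR-31* had 1.06 ± 0.69. The sign of miR-21 was set by definition. Of the other 7, miR-31* alone passed the rule of size, on the side where 8.85% of the mouse miRNAs lay. With the trend removed it had 0.89 ± 0.58 and passed again, where 8.04% did, but its log2 fold change of 0.55 in the authors' deposited table is below 1.5-fold, which 3.75% reached on that side. The remaining 6 did not pass. Among them miR-31, the other arm of miR-31*, had -1.40 and 2.09 on the arrays at a brightness of 12.8, and 0.098 and 0.039 with the trend removed. miR-146a had 0.44 and 0.32. With miR-21 included, the median of the 8 was 0.31 as deposited, 0.095 with the trend removed and 0.056 by the authors' deposited table. Because the side of miR-21 was fixed in advance, these medians are not set against those of all mouse miRNAs. The middle value of the other 7 was 0.28 (miR-27a) as deposited, beside 0.080 over the 373 mouse miRNAs. It was 0.086 (miR-214) beside 0.028 with the trend removed. By the authors' deposited table it was -0.115 (miR-181d) beside -0.018, opposite miR-21.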

How the data were processed

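Total RNA was extracted with Trizol, cleaned on a column and labelled for arrays of locked nucleic acid probes, per the labels' protocols. The authors' deposited value table gives a dye ratio on each array for 2244 features, read here as log2 values. Their log base, centring, normalization and dye order are not stated. Across 1677 probes the turned mean correlated with the fold change in the second table (r = 0.83). Its slope was 1.24 over 155 probes of average intensity 9 to 12, and 0.693 would be the slope of natural logs. The slope is not that of equal log2 values either, so the reading as log2 remains an assumption. The members, at 6.75 to 8.22, lie below this range of intensity. Per the file headers, the second table gives for each probe the average intensity and the fold change, both on the log2 scale, and a p-value without adjustment. Its signed fold, a score in that the authors gave it a sign, repeats the log2 value. What served as replicates for the authors' deposited p-values is not stated, so they were not used, and no p-value was computed, since both arrays hold the same pools.

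The first array's sign was turned, both arrays were averaged and probes of the same miRNA were averaged, which left 373 mouse miRNAs with a fold change from 376 probes. The trend was a lowess fit (span 0.3) of each array's ratio on average intensity over 2101 probes. It was also run on simulated data built from these same fits, which cannot show whether the fits suit the real arrays. Nearest in brightness means the 50 miRNAs closest in average intensity. Likeness to miR-378 is the Euclidean distance over both arrays, and the 5 nearest are named. All members, and list members past the rule of size, are named. The values of miR-31, miR-146a, miR-27a, miR-27b, miR-125b-5p, miR-181d, miR-193b, miR-503, miR-200a, miR-203, miR-205, miR-429 and miR-223 were seen before these miRNAs were named. Members, lists (thyroid hormone, myogenesis, metabolism and cell type markers) and alternatives were chosen with earlier results of these data known. Names follow the array's design, which can be old. Near-homologue probes carry no miRNA name in the table and were not used. Python 3.11.15, NumPy 2.4.6, pandas 2.3.3, statsmodels 0.14.6 and matplotlib 3.10.9 were used.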

Additional observations from a re-analysis of the deposited data

How the results depend on the processing

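miR-378 lay on the side of miR-21 in every alternative run and was past 1.5-fold in each; its log2 ratio ran from 0.98 to 1.51 on the single arrays and was 0.78 in the authors' deposited table, and the cause of the lower value was not tested. Single arrays keep a member's value within its technical SD of the mean by construction. On the single arrays 2 of the 9 members reached 1.5-fold, miR-378 with miR-761 on the first array and with miR-1 on the second; at a threshold of 1.3-fold 2 members passed, and in the other alternatives 1 did. Over the mouse miRNAs, 22 passed at 2-fold (15 on the side of miR-21 and 7 opposite) and 73 at 1.3-fold (53 and 20). On the single arrays 85 to 104 passed, with 33 to 87 on the side of miR-21 and 17 to 52 opposite. Opposite miR-21 lay 20 with the trend removed, while 14 on the side of miR-21 and 21 opposite reached 1.5-fold in the authors' deposited table. The members' median changed sign on the first array alone (-0.026) and in the authors' deposited table (-0.041). Of the 8 other members, only miR-350 moved by more than its small technical SD with the trend removed, to 0.35, and miR-350 and miR-133a did in the authors' deposited table. No paired analysis was possible because the arrays share their pools and no test was run. Low signal limits miR-378*, miR-133a, miR-133b, miR-208 and miR-499, none of them brighter than 6.99. miR-761, at 7.05, was only 0.06 brighter than this.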

Other observations

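Of 17 miRNAs linked to the formation of muscle cells other than the members, 16 had a fold change. By the rule of size 3 passed on the side of miR-21, where 8.85% of the mouse miRNAs did. These were miR-26a with 1.10 ± 0.71, miR-222 with 1.05 ± 0.82 and miR-221 with 0.97 ± 0.010. None passed opposite, where 3.22% did. With the trend removed 5 passed on the side of miR-21, where 8.04% did. There miR-27b (0.46 and 1.67) and miR-125b-5p (0.53 and 1.44) then had the same sign on both arrays. Opposite, where 5.36% did, miR-503 passed with -0.59 ± 0.52, only just beyond 1.5-fold. As deposited miR-503 had a mean of -0.55, short of 1.5-fold. Its log2 fold change in the authors' deposited table is smaller, at -0.30. The arrays of miR-221 were 1.32 and 0.47 with the trend removed, an SD of 0.60, so its near identity as deposited did not hold. Of the 16, 2 reached 1.5-fold in the authors' deposited table, miR-26a and miR-221, on the side where 3.75% did. The median of the 16 was 0.36 beside 0.080 over all mouse miRNAs, and 0.22 beside 0.028 with the trend removed.

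Of 12 miRNAs linked to lipid and energy metabolism, 11 had a fold change, 3 passed on the side of miR-21, where 8.85% of the mouse miRNAs did, and 2 opposite, where 3.22% did. With the trend removed the counts were again 3 and 2, where 8.04% and 5.36% did. On the side of miR-21, miR-143 alone reached 1.5-fold in the authors' deposited table, where 3.75% did, and 2 opposite, where 5.63% did. miR-143 had 2.06 ± 0.43, miR-193 0.75 ± 0.64 and miR-365 0.69 ± 0.063. Opposite lay miR-455 with -1.13 ± 0.14 and miR-34a with -0.85 ± 0.56. miR-193 and miR-365 lay at 0.63 and 0.66 with the trend removed. miR-193b, in the same list, did not pass. Its arrays differed in sign, with -0.33 and 0.74 at a brightness of 6.92. miR-223, also a blood cell marker, had -0.88 and 2.04 on the arrays, an SD of 2.06.

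Among the cell type markers, 3 of 7 keratinocyte markers passed the rule opposite miR-21, where 3.22% of the mouse miRNAs did, namely miR-200b (-0.81), miR-200c (-0.98) and miR-141 (-1.03). In the authors' deposited table these and miR-200a reached 1.5-fold on that side, where 5.63% did. By the rule of size 4 did not pass, namely miR-203 (-0.33), miR-200a (-0.30), miR-429 (-0.032) and miR-205 (0.089). The brightest of the markers, miR-205, had -2.31 and 2.49 on the arrays. The median of the 7 was -0.33. Among the measured fibroblast markers 1 of 4 passed, miR-143, on the side where 8.85% did, and the median was 0.18. Of 5 muscle markers with a fold change 0 passed, with a median of 0.0047, and of 4 blood markers 0, with a median of 0.011. At the shares of 8.85% and 3.22% of all mouse miRNAs on the 2 sides, counts of 0 in lists this short are near the background.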
